A study of Mus musculus with 9 samples.

Results

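The comparison described here sets 2 neighbouring passages of one mouse bile duct organoid culture side by side. It covers 6 of the 9 libraries of the study: the 3 libraries labelled passage 6 (replicate 2) against the 3 labelled passage 5 (replicate 1), with 1 library of each group on either side. All organoids came from a single male animal of mixed background with the genotype Axin2CreERT2+/-; R26-LSL-tdTom+/-. In such cells tamoxifen-inducible Cre is expressed where Axin2, a target of Wnt signalling, is expressed, and Cre switches on the red reporter tdTomato. Every group was differentiated for 11 days and received 3 uM dexamethasone, a glucocorticoid, and 500 nM 4-OHT, the active form of tamoxifen, over the last day. The untreated group held reporter-negative cells of organoids given no Rspo1. The Rspo1-negative and Rspo1-positive groups held reporter-negative and reporter-positive cells of organoids given 100 ng/ml of Rspo1, a secreted enhancer of Wnt signalling. The 3 libraries at passage 10 entered the fit for the estimate of spread, and their levels are given for orientation.

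Bile duct organoids grow as hollow epithelial balls and are broken up and replated at each passage, so one passage is a new culture of the same cells. A dividing cell first copies its DNA, with genes of the replication machinery high in the synthesis phase, and then expresses the genes of the spindle, the kinetochore and the cyclin B kinase on the way to mitosis. Other lists described below hold immediate early genes, such as Fos and Egr1, whose transcripts are fast and short-lived. They also hold oxygen-dependent genes of sugar breakdown, sterol-dependent genes of cholesterol synthesis and inflammation-dependent acute-phase genes.

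The labels do not say that the 3 libraries of a passage came from separate cultures. The p-values therefore set a difference against its unevenness over the 3 groups, with a spread that also drew on passage 10 and on other genes. A passage cannot be told apart from the culture, the sort and the library preparation that belong to it. In sorted bulk RNA, fewer cells of a type and less RNA per cell cannot be told apart either. Total counts ranged from 23423979 to 37351448 per library over all 9, and 22021 to 24578 genes had a count. Biliary markers were present throughout: the 28 markers of the list summed to 18876 to 25884 CPM (read counts relative to the library total, after scaling by the trimmed mean of M-values, TMM) at passage 5 and 18380.0 to 25793 at passage 6. Markers of other cells were low. The 10 endothelial markers summed to 1.91 to 2.96 CPM over the 6 libraries, with Cdh5 and Erg at 0. The 14 mesenchymal markers summed to 22.8 to 72.0 CPM, of which Reln gave 17.5 to 66.2, with Col1a2, Col3a1 and Lum at 0. The 9 immune markers summed to 58.5 to 73.6 CPM at passage 5 and 53.9 to 60.0 at passage 6, mostly Csf1r, Cd68 and Itgam, while Ptprc, the pan-leukocyte surface phosphatase, reached at most 0.133 CPM.

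The libraries of the passages differed in ribosomal RNA. At 3 overlapping genes of a ribosomal locus on chromosome 17 (Gm42418, AY036118 and CT010467.1) the share of all counts at passage 5 was 0.591% in the untreated, 2.38% in the Rspo1-negative and 0.499% in the Rspo1-positive library. At passage 6 it was 5.37%, 16.9% and 20.9%, and at passage 10 it was 1.66%, 1.79% and 10.1%. Each passage 6 library thus held a larger share than every passage 5 library. When the log2 of this share entered the fit as a further term, an alternative added after the data were seen, no gene differed between the passages at an adjusted p under 0.05 and 1017 did at an unadjusted p under 0.05. Of the genes called without that term, 418 of 423 kept their direction in it. The share and the passage largely coincide in these 6 libraries, so a fit with this term cannot tell them apart. This holds for each list below where the term is used.

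**Figure D1:**
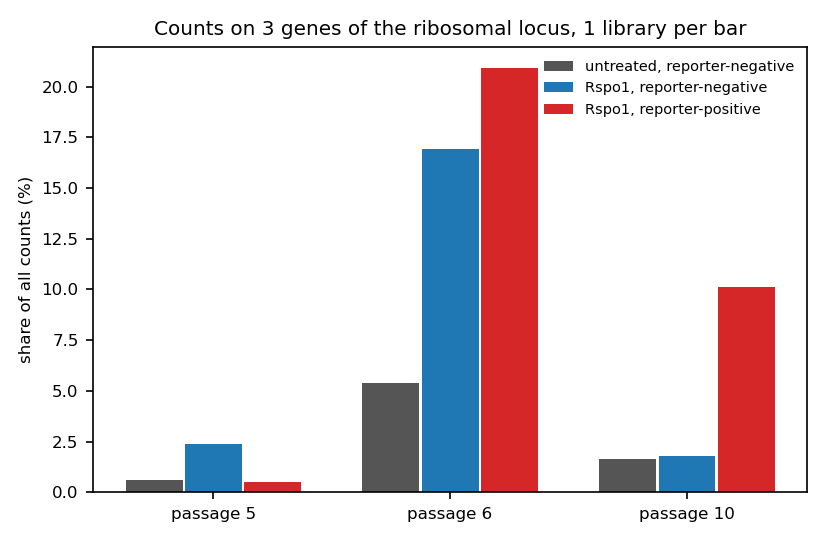
Share of all counts (%, vertical axis from 0) on the 3 genes of the ribosomal locus, by passage; each bar is 1 library and colours mark the group. The passage 6 bars stand at 5.37%, 16.9% and 20.9%, above the passage 5 bars at 0.499% to 2.38%.

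Between passage 5 and passage 6, 423 of 17011 tested genes differed at an adjusted p under 0.05 (edgeR quasi-likelihood test with group as a block, Benjamini-Hochberg adjustment), which is 2.49% of them. Of these, 197 (1.16%) were higher and 226 (1.33%) lower at passage 6, so 46.6% of the calls were rises. In the called genes the median size of the log2 fold change was 1.04 and the smallest was 0.49. The direction was the same in all 3 groups for 421 of the 423. Over all genes tested, 17.2% were higher and 18.3% lower in each of the 3 groups. The median log2 fold change of all genes was 0.00. Scaling by total counts alone moved that median to -0.23 and the share of rises among the calls to 9.29%, and every median below is relative to the TMM scale.

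The count of calls rested on individual libraries and on the block. It was 105 without the untreated passage 5 library, 123 without the Rspo1-negative and 197 without the Rspo1-positive one at passage 5. It was 846 without the untreated and 191 without the Rspo1-positive passage 6 library. Through all 6 fits that each lacked 1 library, 76 genes stayed called (28 higher, 48 lower). Without group as a block no gene was called, and 790 had an unadjusted p under 0.05. A fit on the 6 libraries alone, with 2 residual degrees of freedom in place of 4, called 382 genes, of which 331 were among the 423.

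**Figure D2:**
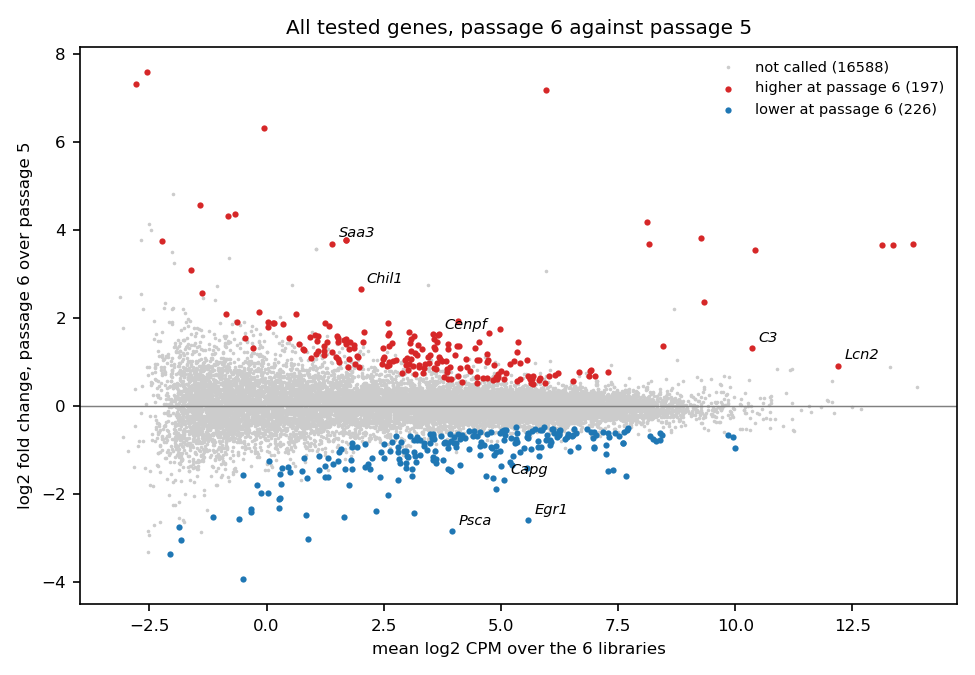
Log2 fold change of passage 6 over passage 5 (vertical axis) against the mean log2 CPM over the 6 libraries (horizontal axis), 1 point per tested gene; red points are the 197 genes called higher, blue points the 226 called lower and grey points the rest. The called genes lie on both sides of 0 over the whole range of levels.

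Genes of mitosis made the broadest rise. Of 40 tested genes of the mitosis list, 26 rose and none fell, against 1.16% of all genes called higher. The median log2 fold change of the list was 1.05, against 0.00 for all genes, and it was 1.56 in the untreated, 0.82 in the Rspo1-negative and 0.99 in the Rspo1-positive pair of libraries. All 40 had a fitted value above 0, from 0.17 to 1.66, and 38 were higher in each of the 3 groups. The exceptions were Cdk1, the kinase of mitotic entry, and Ttk, a spindle checkpoint kinase.

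Cenpf, a kinetochore protein that accumulates late in the cycle (chr1:189640606-189688086, GRCm38, minus strand), was read at 3.02, 3.41 and 34.9 CPM in the untreated, Rspo1-negative and Rspo1-positive libraries of passage 5. At passage 6 it was read at 10.2, 12.4 and 83.6 CPM. Each group rose, while the passages overlapped, because reporter-positive cells were high at both. The log2 fold change was 1.61 ± 0.17 (SE, adjusted p = 0.00195). Cdc20, the activator of the anaphase-promoting complex, went from 4.25, 17.3 and 36.7 CPM to 15.6, 35.0 and 103 CPM in the same order. Its log2 fold change was 1.46 ± 0.19 (adjusted p = 0.00292). Aspm, a spindle pole protein, went from 1.51, 1.52 and 16.1 CPM to 4.58, 7.24 and 37.5 CPM. Its log2 fold change of 1.66 ± 0.21 was the highest of the list. Cenpa, the histone variant of the centromere, rose by 1.63 ± 0.18 and Ube2c, the ubiquitin carrier of the anaphase-promoting complex, by 1.52 ± 0.23. Kif20a and Cenpe, both mitotic kinesins, rose by 1.05 ± 0.13 and 1.43 ± 0.16. These 7 genes, with Tpx2, Espl1 and Birc5, stayed called without each of the 6 libraries in turn.

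The general proliferation marker Mki67 was read at 9.79, 13.0 and 147 CPM at passage 5 and at 21.5, 39.8 and 279.7 CPM at passage 6. It rose by 1.23 ± 0.19 (adjusted p = 0.00793), and its call was lost without the untreated (adjusted p = 0.0542) or the Rspo1-negative (adjusted p = 0.0772) passage 5 library. Over the list, 10 genes were called without the untreated and 10 without the Rspo1-negative passage 5 library, 16 without the Rspo1-positive passage 5 and 15 without the Rspo1-positive passage 6 library. With the ribosomal share as a term the median of the list was 1.35 and no member was called. The histone genes of the S phase, whose messages mostly lack a poly(A) tail, had a median of 0.86 over 11 tested members, with none called. By group the medians were 0.28 in the untreated, 0.37 in the Rspo1-negative and 1.33 in the Rspo1-positive pair. With the ribosomal share as a term the histone median was 0.11.

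The mitotic genes were also described by their promoters, because they moved together and because a pair of short elements recurs in genes of this phase. The window read was the 250 bases before each RefSeq gene start (RefSeq, GRCm38.p6), on both strands. One element is the cell cycle genes homology region (TTTGAA or TTCGAA), and the other the CCAAT box (CCAAT), each searched apart from the other. Of 34 windows of tested mitosis genes (32 genes), 15 (44.1%) held the first element, against 12.4% of the 14450 windows of all tested genes with a window. The CCAAT box stood in 27 (79.4%), against 34.8%, and both elements in 14 (41.2%), against 4.69%. Of the 23 windows of called members, 10 (43.5%) held the first element, 20 (87.0%) the CCAAT box and 9 (39.1%) both. In the 35 windows of DNA replication genes, both stood in 5 (14.3%). A match is a description of letters and not of binding. Windows of 2 called genes are shown because each holds both elements, in capitals, with ATTGG as the CCAAT box of the other strand. Bases inside the GENCODE gene were left out of the printed windows, which cut that of Cdc20 to 241 bases. The windows lie at chr4:118437353-118437593 (Cdc20) and chr7:135716380-135716629 (Mki67), both on the minus strand of GRCm38.p6.
Cdc20: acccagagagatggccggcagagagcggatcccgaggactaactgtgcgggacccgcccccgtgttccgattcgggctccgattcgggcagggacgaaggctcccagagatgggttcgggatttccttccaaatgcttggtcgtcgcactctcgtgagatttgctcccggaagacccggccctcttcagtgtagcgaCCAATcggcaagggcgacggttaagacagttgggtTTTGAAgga
Mki67: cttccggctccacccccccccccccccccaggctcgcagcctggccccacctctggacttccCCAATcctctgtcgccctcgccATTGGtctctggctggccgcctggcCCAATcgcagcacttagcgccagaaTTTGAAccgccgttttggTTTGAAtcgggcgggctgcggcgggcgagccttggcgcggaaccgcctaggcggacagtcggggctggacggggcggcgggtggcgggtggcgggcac

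Of 36 tested genes of DNA replication, none rose and 1 fell. That is 2.78% of the list, against 1.33% of all genes called lower. The median log2 fold change was -0.27, and 34 of the 36 had a fitted value below 0. By group the medians were 0.02 in the untreated, -0.63 in the Rspo1-negative and -0.29 in the Rspo1-positive pair. The gene called was Rrm2, the small subunit of ribonucleotide reductase, at 55.4, 58.7 and 71.9 CPM at passage 5 and 27.0, 31.1 and 59.4 CPM at passage 6. It fell by 0.74 on the log2 scale (SE 0.15, adjusted p = 0.0328). That call was lost without the untreated (adjusted p = 0.221) or Rspo1-negative (adjusted p = 0.162) passage 5 library or the Rspo1-negative passage 6 library (adjusted p = 0.108). Without the untreated passage 6 library 9 members were called lower. Pcna, the sliding clamp of the DNA polymerases, was read at 55.3, 88.2 and 91.1 CPM at passage 5 and at 46.9, 49.3 and 66.0 CPM at passage 6 (log2 fold change -0.50 ± 0.17, adjusted p = 0.157). Mcm6, a subunit of the replicative helicase, had a log2 fold change of -0.48 ± 0.14 (adjusted p = 0.104). Both values missed the threshold. Among cyclins, Ccnb1, Ccnb2 and Ccna2, which act in G2 and mitosis, rose by 1.36 ± 0.23, 1.30 ± 0.22 and 1.05 ± 0.16, while Ccne1 and Ccne2, cyclins of entry into S phase, had values of -0.51 ± 0.23 and -0.60 ± 0.25 that did not pass. The Ccnb1 and Ccnb2 calls were lost without either passage 5 Rspo1 library, without the untreated passage 5 library and without the Rspo1-positive passage 6 library, with adjusted p up to 0.0737. The Ccna2 call was lost without the untreated (adjusted p = 0.0542) or the Rspo1-negative (adjusted p = 0.0646) passage 5 library. The G1 cyclin Ccnd1 fell by 0.66 (SE 0.15, adjusted p = 0.0464), a call kept in 1 of the 6 fits that lacked a library, the one without the untreated passage 6 library.

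**Figure D3:**
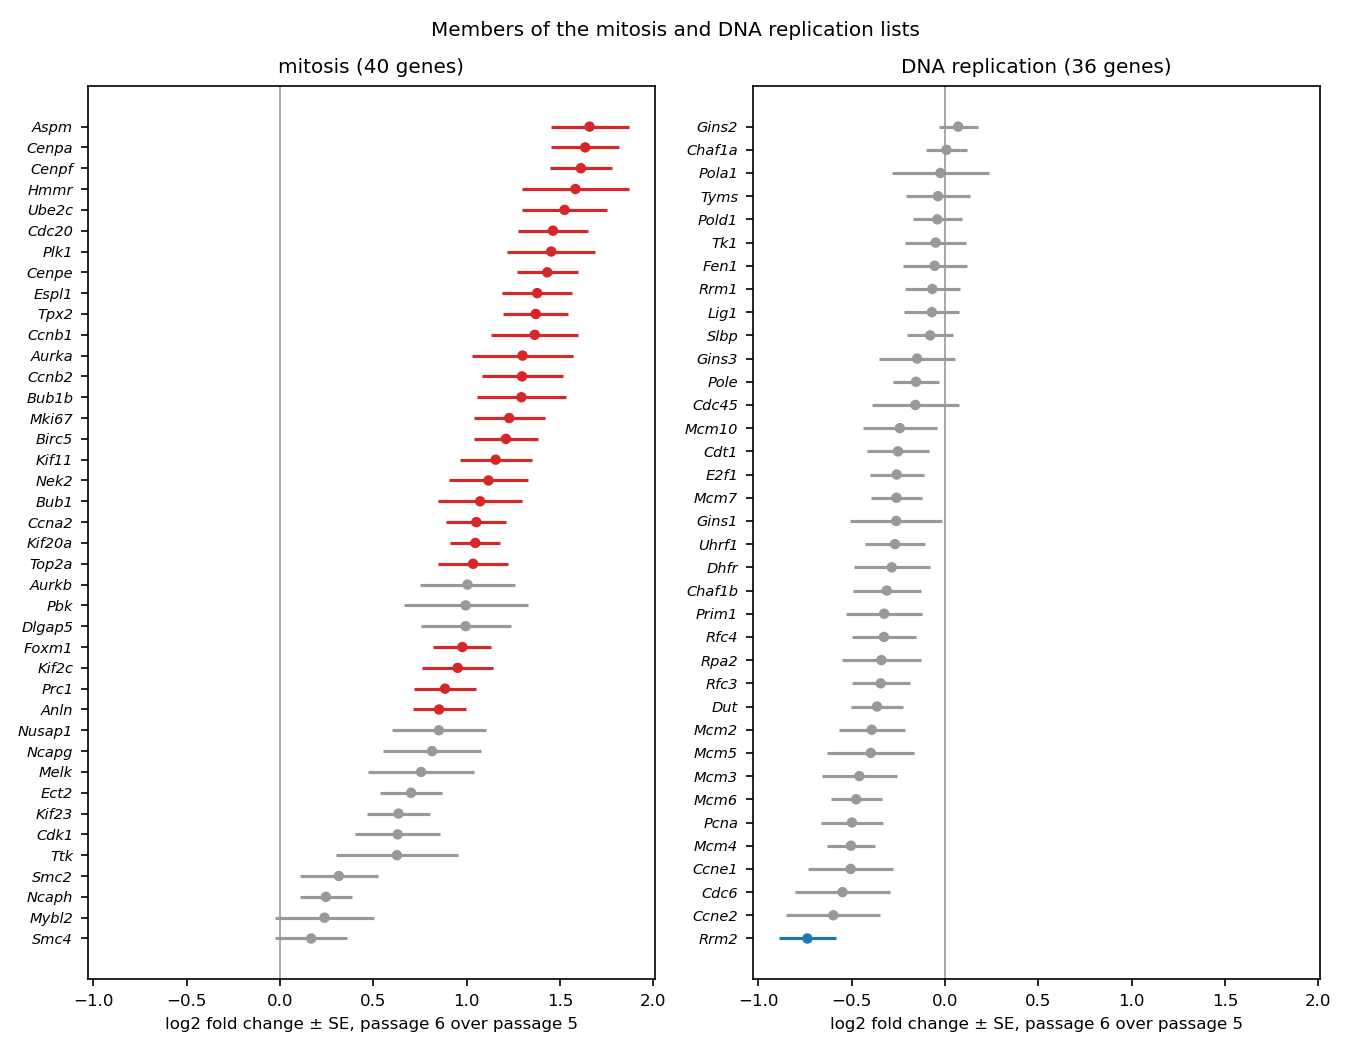
Log2 fold change of passage 6 over passage 5 (horizontal axis, points) with its standard error (bars) for the 40 mitosis and 36 DNA replication genes; red marks genes called higher, blue called lower, grey not called. The mitosis points run from 0.17 to 1.66 and the replication points from -0.74 to 0.07.

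Of 31 tested immediate early genes, 7 fell at passage 6 (Egr1, Fos, Fosb, Dusp1, Egr2, Jun and Gadd45b), 1 rose (Nr4a2) and the median log2 fold change was -0.25, against 1.33% of all genes called lower. Egr1, a zinc finger factor made within minutes of stimulation, was read at 82.9, 65.3 and 289.9 CPM in the untreated, Rspo1-negative and Rspo1-positive libraries of passage 5. At passage 6 it was read at 9.03, 13.2 and 63.0 CPM. The highest passage 6 library lay just under the lowest at passage 5, and passage 10 lay between in each group, at 18.6, 31.4 and 147 CPM. The log2 fold change was -2.59 ± 0.22 (adjusted p = 0.000578), a level at passage 6 of 0.166 times that at passage 5. Fos, a subunit of the factor AP-1, went from 183, 170.4 and 582 CPM to 73.1, 55.5 and 201 CPM, a log2 fold change of -1.49 ± 0.14 (adjusted p = 0.00133). Fosb, its relative, went from 11.5, 8.65 and 94.3 CPM to 0.803, 2.67 and 21.2 CPM, a log2 fold change of -2.43 ± 0.29. Reporter-positive libraries were the highest at both passages for all of Egr1, Fos and Fosb.

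Dusp1, a phosphatase that switches off MAP kinases, went from 115, 112 and 156 CPM to 58.3, 64.9 and 62.1 CPM. All 3 passage 6 libraries lay below all 3 at passage 5, and the log2 fold change was -1.03 ± 0.13 (adjusted p = 0.00273). Arc, an activity-dependent gene outside the list, fell by 2.03 (SE 0.31, adjusted p = 0.00762). The calls of Egr1, Fos, Fosb, Dusp1 and Arc held without each library in turn. Jun, the partner of Fos in AP-1, fell by 0.92 (SE 0.18, adjusted p = 0.0243), and lost its call without the untreated (adjusted p = 0.17) or the Rspo1-positive (adjusted p = 0.0884) passage 5 library or the Rspo1-positive passage 6 library (adjusted p = 0.125). The calls of Egr2, Gadd45b and Nr4a2 were each lost without at least 3 of the 6 libraries in turn. Egr2, a relative of Egr1, was called but stood at 0.0675 to 0.288 CPM at passage 6, a handful of reads. Junb and Klf6, other members, had values of -0.23 ± 0.13 and -0.25 ± 0.13 that did not pass. Over the list, 4 members were called lower without the untreated and 4 without the Rspo1-positive passage 5 library. With the ribosomal share as a term the median was -0.13 and none was called.

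A few genes of inflammation rose at passage 6. Of 34 tested genes of chemokines, cytokines and NF-kB signalling, 4 rose (Saa3, C3, Ccl2 and Lcn2) and none fell. That is 11.8% of the list, against 1.16% of all genes called higher. The median log2 fold change was 0.27, and 7 members had a fitted value below 0. Saa3, an inducible serum amyloid protein (chr7:46711998-46715700, GRCm38, minus strand), was read at 0.523, 0.772 and 0.862 CPM at passage 5 and at 11.3, 6.38 and 10.3 CPM at passage 6. The passages did not overlap, and passage 10 was read at 1.64, 2.75 and 1.26 CPM. The log2 fold change was 3.68 ± 0.36 (adjusted p = 0.00133), and the call held without each library in turn. C3, the central complement component, went from 695, 950.4 and 879 CPM to 2454, 2295 and 1572 CPM. It rose by 1.32 ± 0.20 (adjusted p = 0.00793), and lost its call without the untreated (adjusted p = 0.0728) or the Rspo1-negative passage 5 library (adjusted p = 0.0767).

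Lcn2, a lipocalin that sequesters iron, went from 3693, 3504 and 3047 CPM to 9574, 5379 and 5044 CPM. The rise was largest in the untreated pair, and the log2 fold change was 0.92 ± 0.20 (adjusted p = 0.0362). Ccl2, a monocyte-attracting chemokine, rose by 1.43 ± 0.28 (adjusted p = 0.0251). Each of these 2 calls was lost without any 1 of the passage 5 libraries and without the Rspo1-positive passage 6 library, with adjusted p from 0.0848 to 0.274. The list had 1 call without the untreated, 1 without the Rspo1-negative and 2 without the Rspo1-positive passage 5 library, and 2 without the Rspo1-positive passage 6 library. With the ribosomal share as a term its median was 0.27 and none was called.

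Other called genes outside the list included secreted proteins of defence and inflammation. Chil1, a chitinase-like protein, went from 1.02, 2.16 and 1.67 CPM to 14.8, 7.37 and 9.07 CPM (log2 fold change 2.66 ± 0.33, adjusted p = 0.00254). Hp, the plasma protein haptoglobin that binds free haemoglobin, went from 1.63, 5.96 and 2.95 CPM to 11.8, 14.6 and 8.84 CPM (1.88 ± 0.26, adjusted p = 0.0046). Wfdc18, a small secreted protein with a whey acidic protein domain, went from 4.80, 34.1 and 29.2 CPM to 25.5, 92.7 and 84.9 CPM (1.74 ± 0.19, adjusted p = 0.00195). In Chil1 and Hp the passages did not overlap, and in Wfdc18 they did. Vnn3, a vanin of pantetheine breakdown, rose by 1.63 ± 0.18 and Dram1, a lysosomal protein, by 1.65 ± 0.20. All 5 stayed called without each library in turn. The transcription factors Cebpb and Cebpa, which drive acute-phase genes in liver, rose by 0.72 ± 0.17 (adjusted p = 0.0477) and 0.68 ± 0.15 (adjusted p = 0.0374). The Cebpb call was lost without each of the 4 Rspo1 libraries (adjusted p from 0.0777 to 0.235) and the Cebpa call without each library except the Rspo1-negative one of passage 6 (adjusted p from 0.0553 to 0.23). Interferon-response genes did not pass: of 41 tested none was called, with a median of 0.26.

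Of 36 tested genes of glycolysis and hypoxia, 11 (30.6%) fell at passage 6 and none rose, against 1.33% of all genes called lower. Every fitted value lay below 0, from -1.28 to -0.08, with a median of -0.42, and 29 of the 36 were lower in each of the 3 groups. Bnip3, a mitophagy receptor induced at low oxygen, was read at 66.9, 74.5 and 36.8 CPM at passage 5 and at 28.1, 35.2 and 12.9 CPM at passage 6. All 3 passage 6 libraries lay below the lowest of passage 5, and passage 10 was read at 47.3, 80.2 and 28.2 CPM. The log2 fold change was -1.28 ± 0.14 (adjusted p = 0.00201). Slc16a3, the transporter that exports lactate, went from 192, 272 and 106 CPM to 101, 149 and 51.0 CPM, and its log2 fold change was -0.95 ± 0.12 (adjusted p = 0.00254). These 2 calls held without each library in turn.

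Pgk1, the glycolytic phosphoglycerate kinase, went from 419, 549.8 and 262 CPM to 276, 326 and 143 CPM (log2 fold change -0.74 ± 0.14, adjusted p = 0.0225). Its call remained in 1 of the 6 fits that lacked a library, the one without the untreated passage 6 library. Ldha, the lactate dehydrogenase of anaerobic glycolysis, was read at 1458, 2296 and 1074 CPM at passage 5 and at 1075, 1384 and 781 CPM at passage 6, a log2 fold change of -0.54 ± 0.15 that missed the threshold (adjusted p = 0.0999). Gapdh and Eno1, glycolytic enzymes, had values of -0.24 ± 0.16 and -0.14 ± 0.16 that did not pass either. Ak4, a hypoxia-induced adenylate kinase outside the list, fell by 1.63 (SE 0.18, adjusted p = 0.00201) in a call that held without each library. Over the list, 2 members were called lower without the untreated passage 5, 2 without the Rspo1-positive passage 5 and 2 without the Rspo1-positive passage 6 library, and 6 without the Rspo1-negative passage 5 library. With the ribosomal share as a term the median was -0.38 and none was called.

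The core letters of the hypoxia response element (ACGTG or GCGTG, both strands, overlapping matches counted apart) were common: 37 of 48 windows of the tested members (77.1%) held them, against 53.8% of all windows. Of the 10 windows of called members (9 genes), 9 (90.0%) did. The 48 windows of tested members belonged to 33 genes. Windows of 2 called genes are shown with these letters in capitals, where CACGT and CACGC are the same cores on the other strand. They lie at chr7:138909520-138909756 on the minus strand (Bnip3) and chrX:106186850-106187099 on the plus strand (Pgk1) of GRCm38.p6, from RefSeq. Bases inside the GENCODE gene were left out, which cut the Bnip3 window to 237 bases.
Bnip3: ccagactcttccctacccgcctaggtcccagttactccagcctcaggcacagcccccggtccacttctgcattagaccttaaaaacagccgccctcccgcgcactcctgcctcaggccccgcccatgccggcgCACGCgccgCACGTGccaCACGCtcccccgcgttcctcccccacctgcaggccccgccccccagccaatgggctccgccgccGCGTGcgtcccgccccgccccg
Pgk1: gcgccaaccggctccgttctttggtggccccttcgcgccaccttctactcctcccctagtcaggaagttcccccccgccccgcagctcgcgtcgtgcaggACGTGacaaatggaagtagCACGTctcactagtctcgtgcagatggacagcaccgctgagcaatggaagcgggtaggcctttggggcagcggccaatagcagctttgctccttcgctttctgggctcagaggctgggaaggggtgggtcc

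Of 25 tested genes of cholesterol synthesis, 7 fell at passage 6 and none rose. That is 28.0% of the list, against 1.33% of all genes called lower. The median log2 fold change was -0.35, and 17 members were lower in each group. Hsd17b7, a late enzyme of the pathway, went from 45.1, 23.8 and 36.8 CPM to 19, 11.9 and 26.8 CPM (-0.89 ± 0.15, adjusted p = 0.0126). Msmo1, a sterol C4 demethylating oxidase, went from 331, 236 and 227 CPM to 182, 98.7 and 163 CPM (-0.85 ± 0.16, adjusted p = 0.0206). Sqle, the squalene epoxidase that commits carbon to sterols, went from 441, 329.8 and 345 CPM to 244, 190.5 and 259.6 CPM (-0.68 ± 0.14, adjusted p = 0.0256). For Msmo1 and Sqle all passage 6 libraries lay below all passage 5 libraries, and in each group passage 10 lay above both, at 392, 314 and 322 CPM for Msmo1 and 518, 435 and 462 CPM for Sqle. Without the untreated or the Rspo1-negative passage 5 library 0 members were called, without the Rspo1-negative passage 6 library 1, without the Rspo1-positive library of passage 5 or of passage 6 4 each, and in the fit of the 6 libraries 2. With the ribosomal share as a term the median was -0.26 and none was called. The CCAAT box stood in 16 of 20 windows of tested members (80.0%), against 34.8% of all windows. Among called members it stood in 5 of 6 windows (83.3%).

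The gene with the smallest p-value of the comparison fell. Psca, a GPI-anchored surface protein of epithelia (chr15:74714839-74717069, GRCm38, plus strand), was read at 96.5, 43.1 and 17.3 CPM in the untreated, Rspo1-negative and Rspo1-positive libraries of passage 5. At passage 6 it was read at 13.8, 5.97 and 2.29 CPM. The order of the groups was the same at both passages, and passage 10 lay between them at 21.3, 14.7 and 4.90 CPM. The log2 fold change was -2.84 ± 0.16 (adjusted p = 3.2e-05), and it ranged from -2.97 to -2.76 over the fits that lacked 1 library. The gene 2010109I03Rik (chr15:74876987-74897021, GRCm38, minus strand) fell by 2.4 (SE 0.25, adjusted p = 0.00195). Capg, a capping protein of actin filaments, went from 107, 69.7 and 29.2 CPM to 33.1, 19.2 and 10.4 CPM and was back at 89.5, 63.4 and 24.1 CPM at passage 10. Its log2 fold change was -1.68 ± 0.12 (adjusted p = 0.000261).

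Of 20 tested genes of stratified keratins and wounding, 5 fell and none rose, with a median of -0.32. That is 25.0% of the list, against 1.33% of all genes called lower, and 6 members had a fitted value above 0. Ivl, involucrin of the cornified envelope, went from 58.7, 17.6 and 16.2 CPM to 21.9, 6.79 and 5.13 CPM (-1.49 ± 0.16, adjusted p = 0.00195). Krt4, a keratin of stratified mucosa, went from 9.02, 7.43 and 6.33 CPM to 4.18, 2.92 and 1.69 CPM (-1.42 ± 0.19, adjusted p = 0.00397), with no overlap between the passages. Passage 10 was close to passage 5 for both, at 61.3, 11.7 and 12.2 CPM for Ivl and 10.6, 9.10 and 7.14 CPM for Krt4. These 2 calls held without each library. Those of Krt20, Krt80 and Krt6a did not, and 2 members of the list were called without the untreated passage 5, 2 without the Rspo1-negative passage 5 and 3 without the Rspo1-negative passage 6 library. With the ribosomal share as a term the median was -0.67 and none was called.

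**Figure D4:**
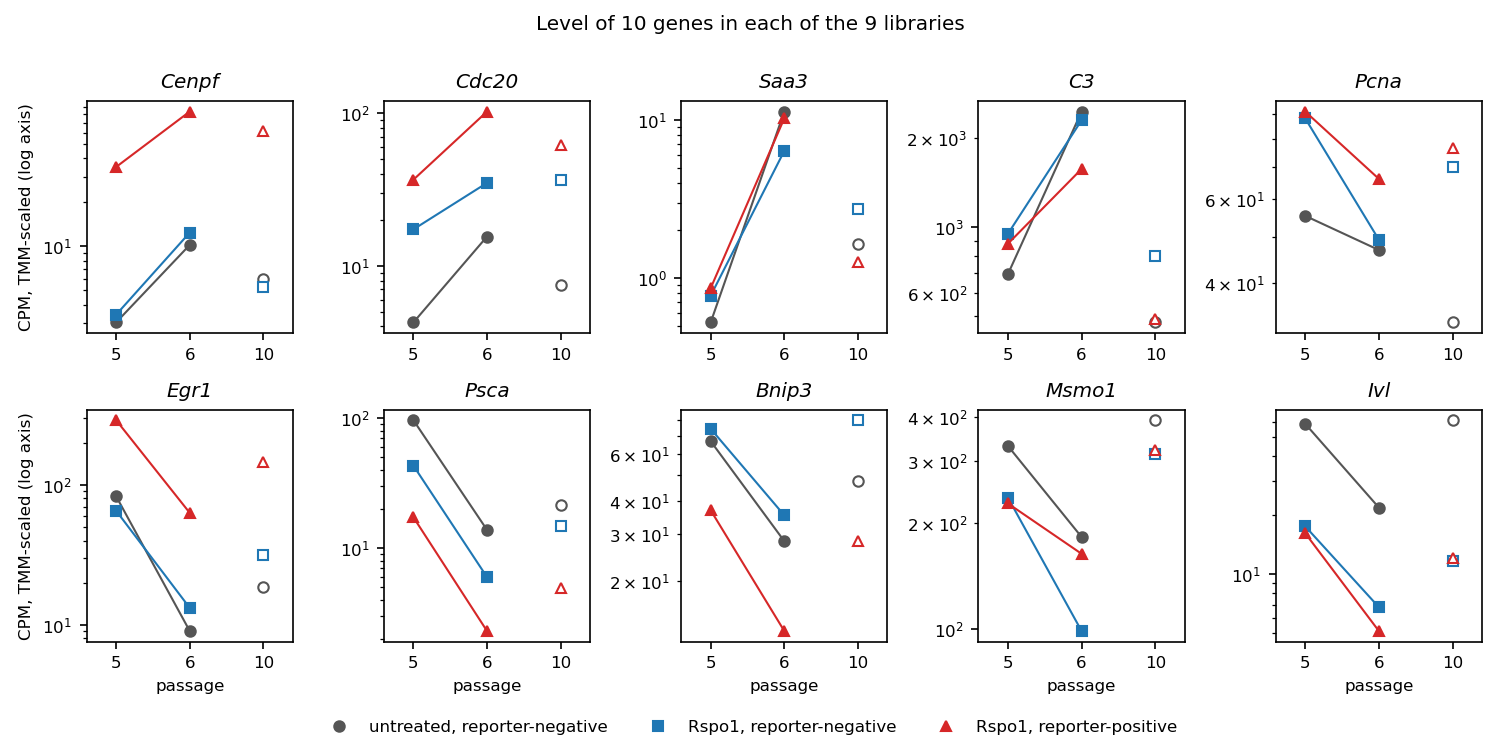
Level (CPM on a log axis) of 10 genes by passage, 1 point per library; filled points joined by lines are passages 5 and 6 of one group, open points are passage 10, and colour and shape mark the group. Cenpf, Cdc20, Saa3 and C3 rise and Pcna, Egr1, Psca, Bnip3, Msmo1 and Ivl are lower in each of the 3 groups at passage 6, and Pcna alone did not pass the test.

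Other genes that fell had varied roles. Igfbp3, a binding protein of insulin-like growth factors, went from 104, 71.8 and 58.2 CPM to 24.7, 31.9 and 30.1 CPM (-1.41 ± 0.21, adjusted p = 0.00733). All 3 passage 6 libraries lay below all 3 of passage 5, and passage 10 was read at 20.3, 31.2 and 19.4 CPM. Igfbp3 is in the list of senescence and culture ageing, of which 3 of 18 tested members (16.7%) fell and 1, Cdkn2c (5.56%), rose, against 1.33% and 1.16% of all genes. Cdkn1a, the p53-induced inhibitor of cyclin-dependent kinases and another of them, went from 279, 244 and 180.1 CPM to 156, 160.2 and 121 CPM (-0.68 ± 0.14, adjusted p = 0.0305), with passage 10 lower still at 58.7, 81.0 and 57.3 CPM. That call was kept in 1 of the 6 fits that lacked a library, the one without the untreated passage 6 library, and that of Igfbp3 in all 6. The Cdkn2c call was lost without any 1 of the passage 5 libraries and without the Rspo1-positive passage 6 library (adjusted p from 0.105 to 0.222). Of 28 tested p53 targets 2 (7.14%) fell and none rose, against 1.33% of all genes called lower. In that list 0 members were called lower without any 1 of the passage 5 libraries or without either passage 6 Rspo1 library. Without the untreated passage 6 library 4 were called lower, and without the Rspo1-negative passage 6 library 1 was called higher.

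Cyp26b1, an enzyme that degrades retinoic acid, went from 52.7, 63.8 and 56.7 CPM to 16.3, 22.9 and 9.31 CPM and was lower again at passage 10, at 8.03, 7.37 and 7.11 CPM. Its log2 fold change between passages 5 and 6 was -1.89 ± 0.21 (adjusted p = 0.00201). Gsta1, a glutathione transferase, fell by 1.68 (SE 0.18) and Sgk1, a glucocorticoid-induced kinase, by 1.09 (SE 0.16). Of 23 tested glucocorticoid targets 3 fell (Sgk1, Dusp1 and Mt2) and 1 rose (Lcn2), and the median was -0.21. These are 13.0% and 4.35% of the list, against 1.33% and 1.16% of all genes. Tfrc, the transferrin receptor of iron uptake, fell by 0.72 (SE 0.10, adjusted p = 0.00587). Cd68, a lysosomal protein best known from macrophages, went from 22.2, 23.0 and 11.4 CPM to 9.30, 7.61 and 6.31 CPM (-1.24 ± 0.17, adjusted p = 0.00382), while Csf1r, another gene of the immune list, had a value of -0.01. Cyp26b1, Gsta1, Sgk1, Tfrc and Cd68 stayed called without each library in turn.

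The lists of ductal identity and Wnt signalling held 1 or 2 calls each. Of 27 tested biliary genes, 1 (3.70%) fell and none rose, against 1.33% of all genes called lower, and the median was 0.07. The ductal keratin Krt19 was read at 3456, 3232 and 1617 CPM at passage 5 and 3127, 2069 and 1472 CPM at passage 6 (-0.31 ± 0.16, adjusted p = 0.416). Of 19 tested hepatocyte genes 1 rose (Cebpa) and 1 fell (Ass1), each 5.26% of the list. Axin2, the gene that carries Cre, was read at 1.32, 44.4 and 75.7 CPM at passage 5 and at 1.74, 97.4 and 88.7 CPM at passage 6. It was low in untreated libraries at both passages and its log2 fold change of 0.62 ± 0.23 missed the threshold (adjusted p = 0.223). Of 21 tested Wnt targets, Sp5, a transcription factor induced by Wnt, rose by 1.07 ± 0.23 (adjusted p = 0.0378) and Ccnd1 fell, each 4.76% of the list. The Sp5 call was lost without any 1 of the passage 5 libraries or the Rspo1-positive passage 6 library, with adjusted p from 0.074 to 0.249. The medians of the biliary, hepatocyte and Wnt lists, at 0.07, 0.10 and 0.17, were -0.16, -0.13 and -0.07 when libraries were scaled by total counts alone, where the median of all genes was -0.23.

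Ribosomal RNA made part of the largest rises. Of the 12 largest rises among called genes with a mean log2 CPM above 2 and one direction in the 3 groups, 4 were the 3 genes of the ribosomal locus and the mitochondrial ribosomal RNA mt-Rnr2. Another 5 (Gm23935, Gm26917, Mir6236, Gm15564 and Lars2) had log2 fold changes of 3.54 to 7.17, and whether they share reads with ribosomal RNA was not tested. Of these, Gm26917 (chr17:39843013-39846341, GRCm38, plus strand) lies directly beside the ribosomal locus, where CT010467.1 begins at 39846353. The remaining 3 of the 12 were Chil1, Col14a1 and Hp. Gm42418 was read at 1760.3, 7386 and 1357 CPM at passage 5 and at 18443, 59964 and 70197 CPM at passage 6 (log2 fold change 3.67 ± 0.69, adjusted p = 0.0206). Its call was lost without the untreated passage 5 library (adjusted p = 0.0895), the Rspo1-positive passage 6 library (0.0555) or the Rspo1-negative passage 6 library (0.0777). Gm42418, AY036118 and CT010467.1 overlap on chromosome 17, and counting could have split their reads. Lars2, the mitochondrial leucyl-tRNA synthetase, went from 260.3, 1146 and 155 CPM to 4418, 5831 and 5667 CPM. The mitochondrial ribosomal RNA mt-Rnr2 rose by 2.36 ± 0.48 (adjusted p = 0.0287). Rpph1, the RNA of ribonuclease P, which is not polyadenylated, went from 0.4, 2.08 and 0.542 CPM to 2.74, 13.2 and 51.5 CPM (3.77 ± 0.77, adjusted p = 0.0291). The direction of mt-Rnr2 and Rpph1 turned with the ribosomal share as a term, to -0.31 and -0.40, and their calls were lost without 5 and 3 of the 6 libraries in turn. An alternative left out 10 genes before scaling. They included the 4 ribosomal RNA genes among the largest rises and the other 5, with the protein-coding Lars2, but not Rpph1. This alternative gave 439 calls, 406 of them shared, and 26 mitotic genes called higher.

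Several lists held few calls or none. Of 56 cytosolic ribosomal protein genes and 44 nuclear genes of oxidative phosphorylation none was called, with medians of -0.14 and -0.05. In the untreated, Rspo1-negative and Rspo1-positive pairs the ribosomal protein medians were 0.16, -0.48 and -0.11. Those of oxidative phosphorylation were 0.22, -0.37 and 6.4e-05. None of 20 heat shock genes was called, and of 36 genes of the unfolded protein and ATF4 responses 3 (8.33%) rose (Sdf2l1, Creld2 and Cebpb), against 1.16% of all genes. Each of these 3 calls was kept in 2 of the 6 fits that lacked a library. Among 21 tested imprinted genes the RNA Meg3 rose by 1.89 ± 0.37 (adjusted p = 0.0252), from 0.346 to 1.05 CPM to 1.52 to 2.71 CPM, a call kept in 1 of the 6 fits that lacked a library, the one without the untreated passage 6 library. By chromosome, with no test, the median log2 fold change ran from -0.04 to 0.03 over the 19 autosomes and was -0.08 for the 485 tested genes of the X chromosome. For the 19 tested genes of the mitochondrial genome it was 0.24, with 1.02 in the untreated, -0.37 in the Rspo1-negative and -0.18 in the Rspo1-positive pair. None of the 4 tested genes of the Y-linked and Xist list was called. Col14a1, a fibril-associated collagen, rose by 1.93 ± 0.28 (adjusted p = 0.00645), from 0.677, 12.9 and 56.8 CPM to 5.62, 55.3 and 143 CPM, and its call was lost without the Rspo1-negative passage 5 library (adjusted p = 0.0672).

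**Figure D5:**
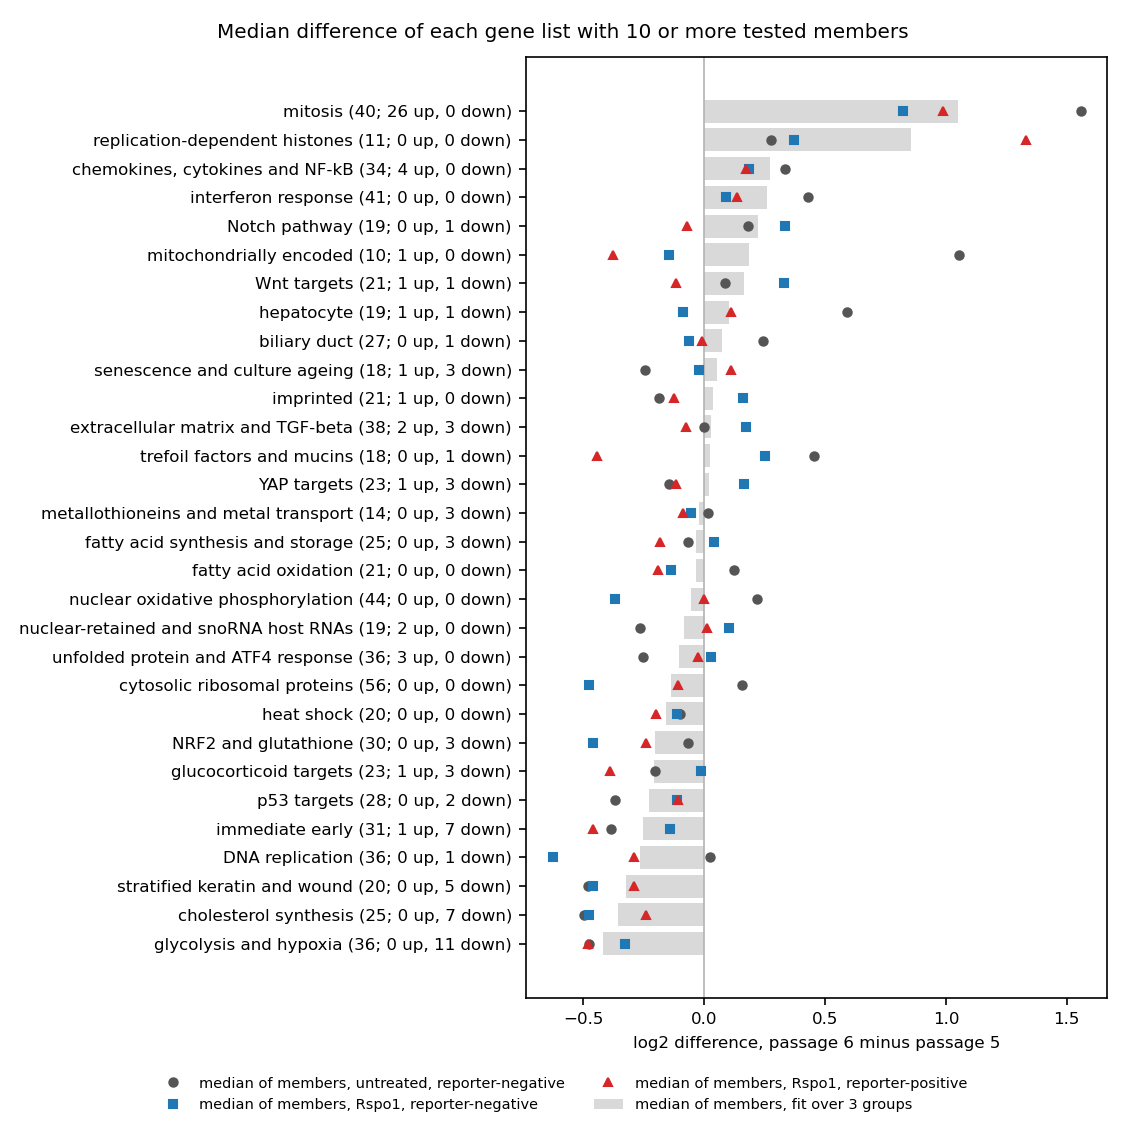
Median log2 difference of passage 6 minus passage 5 (horizontal axis) for each gene list with 10 or more tested members; grey bars are medians of the fitted values over the 3 groups and symbols are medians within one group, and each label gives the members tested and those called. Mitosis lies at 1.05 and glycolysis and hypoxia at -0.42, with all 3 groups on the same side.

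The per-group differences correlated positively but not closely across all tested genes. Across the 17011 genes, the per-group differences of log2 CPM had a Spearman correlation of 0.353 between Rspo1-negative and Rspo1-positive cells, 0.158 between untreated and Rspo1-negative cells and 0.183 between untreated and Rspo1-positive cells. These values are across genes, which are not independent replicates. Each difference is of 1 library against 1, so a group that departs cannot be told apart from a library that does. A difference of more than 2-fold was seen for 1775 genes in the untreated, 1309 in the Rspo1-negative and 901 in the Rspo1-positive pair. Whether the passages differed more in one group than in another was not tested, because 1 library per group and passage leaves no residual degrees of freedom.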

How the data were processed

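RNA-seq counts per gene were compared between passage 6 and passage 5 in 6 of 9 libraries. The authors deposited raw counts per gene and an FPKM column made from them, per the file headers. Trimmomatic 0.35, FastQC 0.11.2, STAR 2.5.1b, featureCounts, DESeq2 and GRCm38 are named, without roles, per the submitters' processing notes. The annotation release and the strand setting are not given in the sources used here, so reads of overlapping antisense genes cannot be told apart. FPKM served only to derive gene length for an alternative.

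Counts of all 9 libraries were fitted with edgeR 4.0.16 in R 4.3.3 (quasi-likelihood test, TMM scaling, group and passage as factors, minimum count 10 and total count 15), leaving 17011 genes and 4 residual degrees of freedom. P-values were adjusted by Benjamini-Hochberg over all of them, with a threshold of 0.05. Standard errors came from the fold change and its F statistic. The test was also run on counts simulated from its own fitted means and spread. That check held no effect shared by a culture or library, so it does not address one. No 2 libraries agreed within sampling noise. The replicate number is the passage, so it pairs nothing within the comparison. Of 32137 gene IDs 32126 matched GENCODE M21, which gave coordinates, and 11307 genes had a RefSeq promoter window.

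Genes could be named where they were called, had a mean log2 CPM above 2 and one direction in the 3 groups (the 12 largest rises and 12 largest falls), where they had one of the 6 smallest p-values, or where a gene list held them. Rises after the ribosomal genes (Wfdc18, Aspm, Dram1, Cenpa, Vnn3, Cenpf), and the motifs and windows, were chosen after values were seen. The comparison and the gene lists were chosen with earlier results of these data known. Alternatives changed the scaling, filter, test (DESeq2 1.42.0, limma 3.58.1), block, libraries and a GC and length offset. Both alternatives on ribosomal RNA were chosen after seeing the data. Some genes that met these rules, and some of the lists, are counted but not reported by name here.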

Additional observations from a re-analysis of the deposited data

Results flagged for a closer look

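In 3 gene lists the median difference between passage 6 and passage 5 lay above 0 in one group and below 0 in another, by at least 0.3 on the log2 scale on each side, a limit set after the medians had been seen. The difference between groups was not tested, since each rests on 1 library against 1. The 4 tested mesenchymal genes had a median of 1.03 in Rspo1-negative and -0.58 in untreated cells. The 18 tested trefoil factors and mucins had 0.46 in untreated and -0.44 in Rspo1-positive cells. The 10 tested mitochondrially encoded genes had 1.05 in untreated and -0.38 in Rspo1-positive cells.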

How the results depend on the processing

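The count of 423 genes was 0 without group as a block, 1614 with scaling by total counts alone, 1193 without a filter, 851 with DESeq2 and 105 to 846 when 1 library was left out. It was 0 with the ribosomal share as a term, where mt-Rnr2 (-0.31) and Rpph1 (-0.40) reversed and the other 119 of 121 named gene results lost their call. The share was higher at passage 6 than at passage 5 in each group, so that fit cannot tell share and passage apart. The lowest count was without the untreated passage 5 library and the highest without the untreated passage 6 library. The GC and length offset gave 615 calls and lost none of the 121 named gene results, and upper-quartile scaling lost 4. The cause was not tested. No paired analysis was possible with the replicate number as a block because the replicate number is the passage being compared; the fit already pairs by group. Depth limits genes of few reads, such as Egr2.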
